A study of Rattus norvegicus with 6 samples.

Results

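Expression of the TGF-beta and BMP pathway was examined in rat C6 glioma cells with and without AQP1 overexpression. Genes were taken as members if their symbol named a ligand, ligand-binding protein, antagonist, receptor, Smad or Smad regulator of the pathway, and 45 of the 12121 genes with deposited counts met this rule. By role they were 8 ligands, 5 genes for storage or processing of ligands, 4 antagonists, 10 receptors, 7 Smads and 6 regulators of Smads. The other 5 carry a pathway name and were kept as a group of their own. A further 36 symbols fixed for these roles, among them Bmp4, Nog, Eng and Smad9, were not analysed here. Before deposit the authors kept only genes averaging over 1 TPM in either group, which leaves out genes low in both.

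Ligands of the TGF-beta family bind a type II receptor kinase, which switches on a type I receptor. The type I receptor then phosphorylates Smads that enter the nucleus together with Smad4. Smad2 and Smad3 carry signals of TGF-beta and activin, while Smad1 and Smad5 carry those of BMP. TGF-beta is secreted in a latent form that is stored in the matrix by latent TGF-beta binding proteins, and secreted antagonists such as follistatin and the chordins hold other ligands away from their receptors. In gliomas, TGF-beta is known for its part in invasion and matrix production, and BMP for driving cells towards an astrocytic state.

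C6 is an established glioma line from a chemically induced rat brain tumour. The C6-AQP1 cells (labelled overexpress Aqp1) carried AQP1, a water channel, in a pCDH vector with a CMV promoter, copGFP and a puromycin marker, and the C6 control cells were labelled control. Each group had 3 libraries, and both were grown in the same serum-containing medium. Whether the sequenced controls held the empty vector, whether C6-AQP1 was 1 clone, and whether the libraries came from separate cultures could not be read from the labels or methods, so p-values describe the spread among libraries, which may be technical. Aqp1 (ENSRNOG00000011648) had 1052, 1064 and 1057 normalized CPM, which are counts scaled to library size, in the C6-AQP1 libraries and 347, 352 and 349 in the controls, a rise of 3.03-fold.

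The libraries held between 19054251 and 52725877 counts, and replicate 1 was the shallowest of both groups. The 45 genes took 0.442% to 0.449% of the counts in C6-AQP1 and 0.3825% to 0.387% in the controls. Of 10 glial markers 8 were measured and all 8 were higher in C6-AQP1 by the test described below, as were 40.8% of all genes. Nes (1.20-fold) and Cnp (1.11-fold) differed least. The summed levels were 6251 to 6467 CPM against 4397 to 4485 CPM and came mostly from Vim and Nes. Gfap, the intermediate filament of astrocytes, rose 11.9-fold, from 14.04 ± 0.0652 to 167 ± 6.72 CPM (SD, n = 3). Slc1a3, a glutamate transporter, rose 2.19-fold at low levels, from a mean of 1.60 CPM in the controls to 3.51 CPM in C6-AQP1. Of 8 fibroblast and mural markers 4 were measured, with summed levels of 1166 to 1193 CPM against 780 to 789 CPM that came mostly from Pdgfra, a gene that glial progenitors also express. Of these 4, Pdgfra, Pdgfrb and Thy1 rose and Col6a3 fell (log2 fold change -1.33), with 14, 52 and 26 counts of Thy1 in C6-AQP1 and 1, 5 and 1 in the controls. Of 8 macrophage and microglia markers only Cd14 was measured, with 41.0 to 43.4 CPM in C6-AQP1 and 70.4 to 73.9 CPM in the controls, and none of 6 endothelial markers was measured. The part of these marker differences in the results given here was not tested.

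More members rose than fell in C6-AQP1 cells. Tests were made with the quasi-likelihood method of edgeR, with Benjamini-Hochberg adjustment over all genes, and SE is the standard error on the log2 scale. Of the 45 members, 40 passed an adjusted p of 0.05, and 26 of them rose while 14 fell. Of all genes 81.5% passed, with 40.8% higher and 40.7% lower, so the share of members that passed, 88.9%, lay near that of all genes. The members' median log2 fold change was 0.18, against 0.00 over all genes, and their median absolute log2 fold change was 0.33, against 0.43. In 39 members the libraries of the groups did not overlap, a share of 86.7% against 82.5% of all genes. Such counts show direction more than size, since 21 members differed by less than 1.25-fold. Members and roles were chosen with earlier results of these data known, so their shares are a description and no test.

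A fold change above 2 was reached by 6 members, or 13.3%, against 14.1% of all genes. The co-receptor Tgfbr3, the ligand Tgfb2, the protease Bmp1 and the sparsely counted Tgfbr3l were higher by this measure, and the antagonist Fst and the ligand Gdf15 were lower. Past 2-fold were 9.74% of all genes upward and 4.35% downward. In bulk RNA, fewer cells that express a gene and less RNA per cell cannot be told apart, which applies to every level given here.

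**Figure D1:**
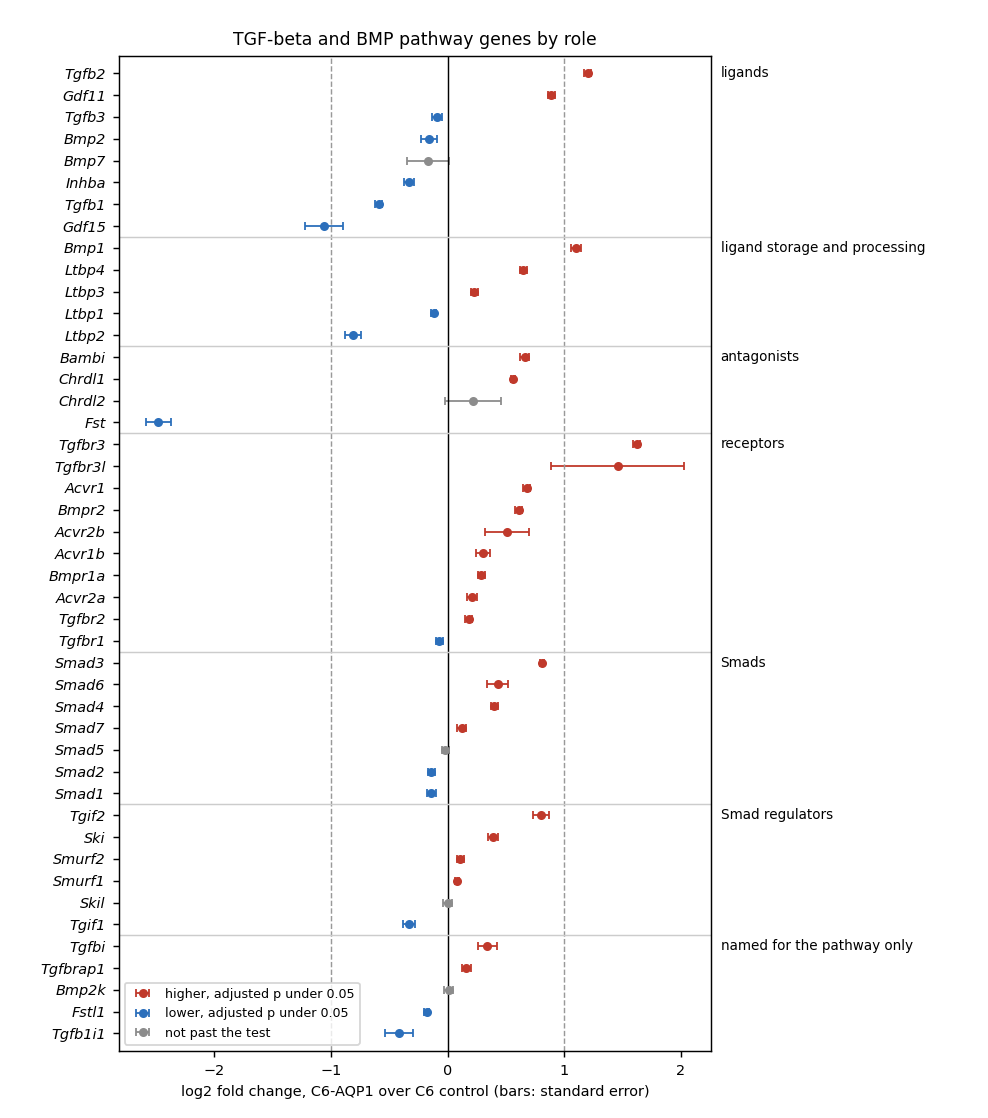
Log2 fold changes of the 45 TGF-beta and BMP pathway genes in C6-AQP1 over C6 control, grouped by role, with bars for the standard error and dashed lines at a 2-fold change. Receptors lie mostly to the right of 0, ligands lie on both sides, and Fst lies farthest to the left at -2.48.

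Promoter sequences are shown for 4 members to set the changes beside the sequence before their start sites: the co-receptor and the Smad with large rises, and a major and a minor ligand that fell. They are the 250 bases before a start site listed by RefSeq for the build GRCr8 (the reads were aligned to rn6), given 5′ to 3′ on the gene's strand, and whether C6 cells use these starts was not tested. Capitals mark matches on either strand to 5 short motifs: the Smad core CAGAC, which reads GTCTG on the other strand, the BMP-type Smad element GGCGCC, which reads alike on both, the FOXO element TTGTTT (on the other strand AAACAA), the MAZ element GGGAGG (on the other strand CCTCCC) and the E2F element TTTNGCGC (on the other strand GCGCNAAA). The motifs share no matched position in these 4 windows.
Tgfbr3 (chr14:2634044-2634293, plus strand): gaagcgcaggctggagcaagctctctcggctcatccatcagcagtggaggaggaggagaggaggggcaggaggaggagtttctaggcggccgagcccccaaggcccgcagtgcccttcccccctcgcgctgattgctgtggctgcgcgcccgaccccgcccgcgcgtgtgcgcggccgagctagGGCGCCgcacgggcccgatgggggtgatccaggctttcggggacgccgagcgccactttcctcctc
Smad3 (chr8:73132325-73132574, minus strand): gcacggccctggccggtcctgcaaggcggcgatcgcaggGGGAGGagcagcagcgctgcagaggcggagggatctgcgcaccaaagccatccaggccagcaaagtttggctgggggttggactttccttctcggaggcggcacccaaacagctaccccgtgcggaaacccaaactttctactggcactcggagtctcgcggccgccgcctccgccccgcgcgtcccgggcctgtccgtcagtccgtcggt
Tgfb1 (chr1:90324062-90324311, plus strand): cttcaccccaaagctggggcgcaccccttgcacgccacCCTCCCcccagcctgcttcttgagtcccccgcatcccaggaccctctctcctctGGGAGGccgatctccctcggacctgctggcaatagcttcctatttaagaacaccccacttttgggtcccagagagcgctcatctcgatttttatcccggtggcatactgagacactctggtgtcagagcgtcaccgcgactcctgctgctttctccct
Gdf15 (chr16:18838186-18838435, plus strand): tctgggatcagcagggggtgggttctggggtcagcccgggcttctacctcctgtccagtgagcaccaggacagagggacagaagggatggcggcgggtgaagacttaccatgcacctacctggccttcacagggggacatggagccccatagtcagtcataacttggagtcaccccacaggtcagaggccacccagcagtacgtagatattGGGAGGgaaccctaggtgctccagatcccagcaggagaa

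By an enrichment analysis of genes past 2-fold, the study tied binding sites of FOXO4 and MAZ to upregulated genes. It tied those of E2F factors to downregulated genes. The letter matches given here are another measure and take in members at any fold. The Smad elements are letters that the pathway's own factors prefer. The window of Tgfbr3 held GGCGCC once, those of Smad3 and Gdf15 held GGGAGG once, and that of Tgfb1 held it at 2 places, once on each strand. RefSeq windows were matched for 36 of the 45 members, and Bmp1 and Fst were among those not matched. Of these, 21 (58.3%) held the MAZ element, against 36.0% of 27457 promoters in the table and 45.5% of the 8636 that were matched to genes with counts. The FOXO element was in 7 members (19.4%, against 18.0% and 11.7%). They were Acvr2a, Ltbp3, Ski, Tgfbr2, Tgfbr3l and Tgif2, which rose, and Inhba, which fell. Matched members that rose numbered 22 and those that fell 11, so the FOXO element was in 6 of 22 and 1 of 11. The MAZ element was in 13 of 22 and 6 of 11. Whether either element goes with direction was not tested. GGCGCC was in 9 members (25.0%, against 9.23% and 17.7%) and CAGAC in 4 (11.1%, against 42.7% and 40.9%). None of the 36 held the E2F element, which 1.12% of all promoters and 1.95% of those with counts did. The members' windows had a median GC content of 67.4%, against 52.0% over all promoters and 60.8% over those of genes with counts, which bears on how often any of these motifs occurs. A match is only a run of letters, and nothing about a factor's binding was measured.

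Of the 3 TGF-beta isoforms, Tgfb2 rose, Tgfb1 fell and Tgfb3 changed little. Tgfb2 (ENSRNOG00000002418), the isoform that depends most on a co-receptor, had 90.6, 89.7 and 93.4 CPM in the 3 C6-AQP1 libraries and 40.5, 39.5 and 39.7 in the 3 controls. Every C6-AQP1 library lay far above every control, a log2 fold change of 1.20 (SE 0.03, edgeR adjusted p = 1.1e-18). Tgfb1 (ENSRNOG00000020652), the isoform best known from wound repair and immune control, had 126, 141 and 139 CPM in C6-AQP1 and 202, 202 and 209.5 in the controls. It was lower in every C6-AQP1 library, by 1.505-fold (log2 fold change -0.59, SE 0.03, edgeR adjusted p = 5.6e-10). Tgfb3, the third isoform, had 49.8, 52.6 and 48.8 CPM against 53.1, 54.2 and 54.1, a log2 fold change of -0.09 (adjusted p = 0.023). Its call was lost without C6-AQP1 replicate 3 (-0.07, adjusted p = 0.15), control replicate 2 (-0.08, 0.096) or control replicate 3 (-0.08, 0.081), with adjusted p from 0.0062 to 0.31 over all alternatives.

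Count ratios within a library, where scaling has no part, express the same shift between the isoforms. They come from the same counts as the fold changes above and are no separate support. The count ratio of Tgfb2 to Tgfb1 was 0.717, 0.637 and 0.673 in the C6-AQP1 libraries and 0.2005, 0.195 and 0.189 in the controls, a shift of 3.46-fold with no overlap. That of Tgfb2 to Tgfb3 was 1.82, 1.705 and 1.91 against 0.762, 0.728 and 0.734, a shift of 2.44-fold. These ratios are not adjusted for transcript length, so only their shift between groups can be read. In all 6 pairs the numerator was the member with the higher log2 fold change, so the upward direction was set by that choice. For each of the 6 ratios compared between members, a two-sided exact permutation test over 3 against 3 libraries gave p = 0.1, also after Benjamini-Hochberg adjustment, the smallest value that this design allows.

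Other ligands moved in both directions. Gdf11, a ligand that signals through activin receptors, had 89.2, 92.1 and 93.8 CPM in C6-AQP1 and 47.6, 50.8 and 50.04 in the controls, a log2 fold change of 0.89 (SE 0.03, edgeR adjusted p = 2.9e-16). Inhba, which encodes the beta A subunit of activin, had 40.4, 41.7 and 38.9 CPM against 49.4, 50.6 and 51.6. Its C6-AQP1 libraries all lay below the controls (log2 fold change -0.33, adjusted p = 7.8e-08). Gdf15, a stress-induced and divergent member of the family, had 1.38, 1.405 and 1.42 CPM in C6-AQP1 and 2.87, 2.65 and 3.29 in the controls, from 27, 58 and 60 counts in C6-AQP1 and 64, 137 and 168 in the controls. The groups did not overlap, and the log2 fold change was -1.06 (SE 0.16, adjusted p = 4.2e-06). It stood at -0.95 without control replicate 3 (adjusted p = 1e-04), inside a 2-fold change, with adjusted p from 2.4e-07 to 1e-04 over all alternatives.

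Bmp2 and Bmp7, the BMP ligands with counts, had small fold changes. Bmp2, a classical BMP, had 14.3, 15.6 and 16.4 CPM in C6-AQP1 and 17.4, 16.6 and 18.4 in the controls, a log2 fold change of -0.16 (edgeR adjusted p = 0.028). That call was lost without C6-AQP1 replicate 1 (-0.12, adjusted p = 0.087), C6-AQP1 replicate 2 (-0.17, 0.058) or control replicate 3 (-0.11, 0.18), with adjusted p from 0.0016 to 0.18 over all alternatives. Bmp7, which is also known as an osteogenic protein, had 2.46, 1.53 and 2.03 CPM against 2.42, 2.11 and 2.11. Its groups overlapped and the test was not passed (log2 fold change -0.17, SE 0.18, adjusted p = 0.4). In all, 2 of the 8 ligands rose, 5 fell and 1 did not pass, with a median log2 fold change of -0.17. The 87.5% that passed lay close to the 81.5% of all genes.

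**Figure D2:**
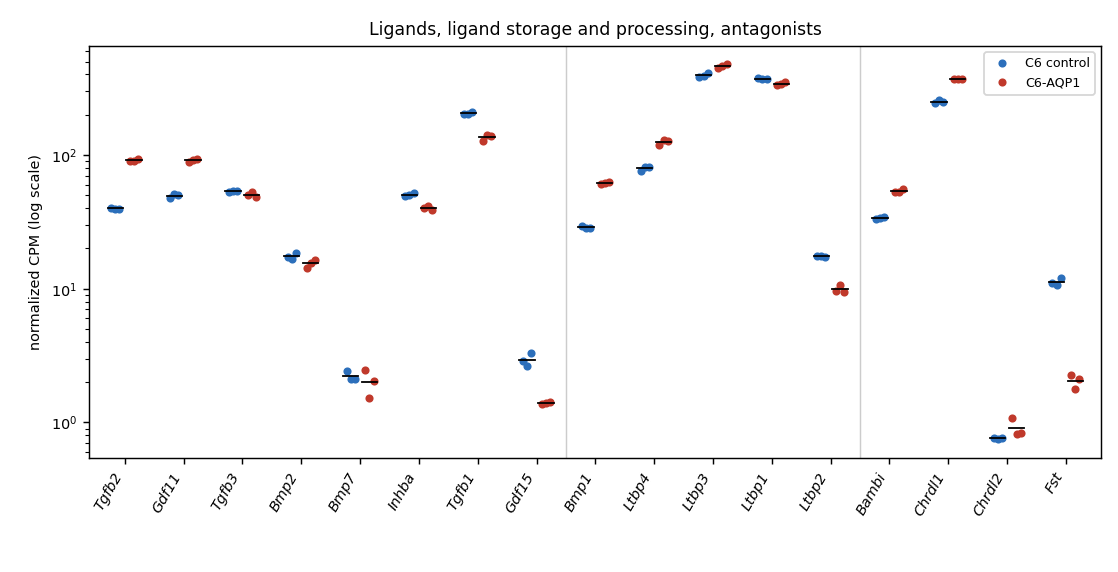
Normalized CPM (log scale) of ligands, ligand storage and processing genes and antagonists in each of the 6 libraries, with black bars for the group means. Tgfb2, Gdf11 and Bmp1 are higher and Tgfb1, Ltbp2 and Fst are lower in all 3 C6-AQP1 libraries than in any control.

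Genes that store and process ligands also split. Bmp1, a metalloprotease that cleaves procollagens and chordin and is no ligand in spite of its name, had 60.3, 61.7 and 62.4 CPM in C6-AQP1 and 29.5, 28.4 and 28.6 in the controls. The groups lay well apart, at 1.10 on the log2 scale (SE 0.04, edgeR adjusted p = 5.1e-17). Ltbp4, a latent TGF-beta binding protein of elastic fibres, had 119.6, 129 and 128 CPM against 75.9, 81.8 and 81.5, a rise of 1.57-fold. Ltbp2, the family member that does not bind latent TGF-beta, went from 17.4 ± 0.236 CPM in the controls to 9.91 ± 0.719 in C6-AQP1 (SD, n = 3), lower by 1.75-fold (edgeR adjusted p = 4.5e-10). The others moved less. Ltbp3 had 462 ± 15.7 CPM in C6-AQP1 and 394 ± 11.6 in the controls (SD, n = 3, log2 fold change 0.23), and part of its counts came from reads that the quantification divided among genes. Ltbp1, which anchors latent TGF-beta in fibrillin microfibrils, had 342 ± 7.84 CPM against 372 ± 2.904 (SD, n = 3, log2 fold change -0.12). All 5 passed the test, 3 upward and 2 downward, where 81.5% of all genes passed in about equal shares each way.

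Among the antagonists, Fst fell more than any other member by fold. Fst (ENSRNOG00000011631), follistatin, a secreted protein that traps activins, had 2.25, 1.79 and 2.104 CPM in C6-AQP1 and 11.1, 10.7 and 12.05 in the controls, from 44, 74 and 89 counts in C6-AQP1 and 247, 554 and 616 in the controls. Every C6-AQP1 library lay far below every control, lower by 5.59-fold (log2 fold change -2.48, SE 0.11, edgeR adjusted p = 7.4e-15). The count ratio of Inhba to Fst in the same library was 17.9, 23.3 and 18.5 in C6-AQP1 and 4.46, 4.72 and 4.28 in the controls, a shift of 4.41-fold. The other 3 antagonists with counts were not lower. Chrdl1, a chordin-like protein that binds BMP, had 372, 371 and 368 CPM against 246, 256 and 249, a log2 fold change of 0.56 (adjusted p = 2.6e-16). Bambi, a receptor-like decoy without a kinase domain, had 53.1, 52.8 and 55.2 CPM against 33.3, 33.9 and 34.7, a log2 fold change of 0.66 (adjusted p = 5.3e-13). Chrdl2, a relative of Chrdl1, had 1.08, 0.824 and 0.827 CPM against 0.763, 0.754 and 0.763 and did not pass the test (log2 fold change 0.22, SE 0.24, adjusted p = 0.42), although its libraries did not overlap.

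Of the 10 receptors and co-receptors, 9 rose and 1 fell, against 40.8% and 40.7% of all genes, with a median log2 fold change of 0.41. Tgfbr3 (ENSRNOG00000002093), betaglycan, a co-receptor that presents TGF-beta and above all the isoform encoded by Tgfb2, had 95.6, 98.5 and 99.4 CPM in C6-AQP1 and 32.6, 31.7 and 31.4 in the controls. The rise was 3.08-fold with no overlap (log2 fold change 1.62, SE 0.03, edgeR adjusted p = 9.4e-21). Its signalling partners changed far less. Tgfbr2, the type II receptor of TGF-beta, had 127, 126 and 129.6 CPM against 112, 111 and 116 (log2 fold change 0.18, adjusted p = 3.6e-06). Tgfbr1, its type I receptor, had 81.02, 74.9 and 78.2 CPM against 81.3, 81.5 and 82.2, a log2 fold change of -0.07 (adjusted p = 0.041). This small fall lost its call on leaving out any 1 library other than C6-AQP1 replicate 1, with values between -0.04 (without C6-AQP1 replicate 2, adjusted p = 0.27) and -0.08 (without C6-AQP1 replicate 3, adjusted p = 0.069), and adjusted p from 0.0056 to 0.61 over all alternatives. The count ratio of Tgfbr3 to Tgfbr2 went from 0.292, 0.286 and 0.272 in the controls to 0.754, 0.784 and 0.767 in C6-AQP1, a shift of 2.71-fold.

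BMP and activin receptors were higher in C6-AQP1 by smaller steps. Acvr1, a type I receptor that serves BMP ligands, had 106, 107 and 107 CPM in C6-AQP1 and 67.3, 66.2 and 66.9 in the controls, a log2 fold change of 0.68 (edgeR adjusted p = 1.6e-15). Bmpr2, the type II receptor of BMP, had 96.7, 101 and 92.9 CPM against 63.9, 63.5 and 63.4 (log2 fold change 0.61, adjusted p = 2.2e-13). Both lay apart from the controls in every library. Bmpr1a, a type I receptor of BMP, had 94.1 ± 1.94 CPM against 76.7 ± 1.54 (SD, n = 3, log2 fold change 0.29). Of the activin receptors, the type I Acvr1b had 22.4 ± 0.368 CPM against 18.3 ± 1.56 and the type II Acvr2a had 40.8 ± 1.32 against 35.1 ± 1.09 (SD, n = 3), with log2 fold changes of 0.30 and 0.21. None of these 3 reached a 1.25-fold change.

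The 2 remaining receptors had few counts. Acvr2b, the second type II activin receptor, had 1.79, 1.57 and 2.104 CPM against 1.35, 1.35 and 1.17, a log2 fold change of 0.51 (SE 0.19, edgeR adjusted p = 0.019). Its call was lost without C6-AQP1 replicate 3 (0.37, adjusted p = 0.13) or control replicate 3 (0.44, 0.068), with adjusted p from 0.011 to 0.13 over all alternatives. Tgfbr3l, a relative of betaglycan, had 4, 17 and 32 counts in the C6-AQP1 libraries and 0, 15 and 8 in the controls. The groups overlapped, and its log2 fold change of 1.46 had a standard error of 0.57 (adjusted p = 0.028). This call, too, was lost without C6-AQP1 replicate 3 (0.90, adjusted p = 0.21) or control replicate 3 (1.35, 0.1), and the value was 2.20 without control replicate 2 (0.01), with adjusted p from 0.0029 to 0.21 over all alternatives.

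**Figure D3:**
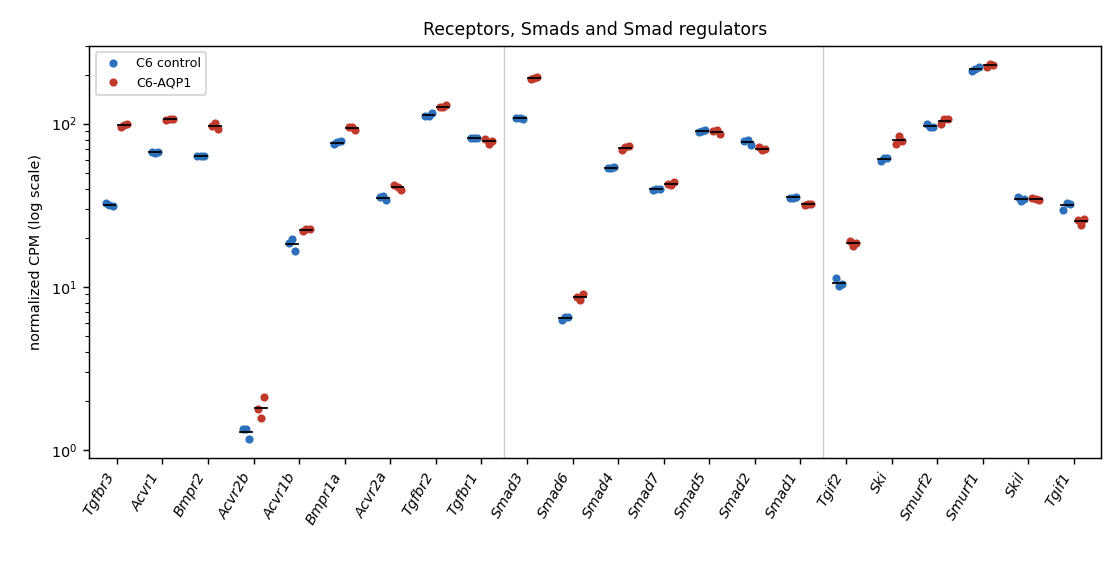
Normalized CPM (log scale) of receptors, Smads and Smad regulators in each of the 6 libraries, with black bars for the group means. Tgfbr3l is left out because a control library had 0 counts, and the widest gaps between groups are those of Tgfbr3, Smad3 and Tgif2.

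Smad3 had a larger fold change than the other 6 Smads with counts. Smad3 (ENSRNOG00000008620), a transducer of TGF-beta and activin that binds DNA itself, had 187, 189 and 193 CPM in C6-AQP1 and 109, 109 and 107 in the controls. The rise was 1.76-fold with no overlap (log2 fold change 0.81, SE 0.02, edgeR adjusted p = 7e-18). Smad2, its closest relative, had 71.7, 68.96 and 69.5 CPM against 77.9, 79.1 and 74.5 and fell slightly (log2 fold change -0.14, adjusted p = 0.00042). The count ratio of Smad3 to Smad2 was 2.601, 2.75 and 2.77 in C6-AQP1 and 1.399, 1.37 and 1.43 in the controls, a shift of 1.93-fold. Smad4, the partner shared by both branches, had 68.6, 71.6 and 72.5 CPM against 53.7, 53.6 and 54.4, a log2 fold change of 0.40 (adjusted p = 2.5e-10).

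The Smads of the BMP branch did not rise. Smad1 had 31.9, 32.1 and 32.1 CPM in C6-AQP1 and 35.2, 35.3 and 35.5 in the controls, a small fall with tight libraries (log2 fold change -0.14, SE 0.04, edgeR adjusted p = 0.0027). Smad5 had 90.2, 90.9 and 86.2 CPM against 89.3, 90.4 and 91.3, groups that overlapped (log2 fold change -0.02, SE 0.03, adjusted p = 0.48). The count ratio of Smad3 to Smad1 shifted by 1.93-fold, from 3.09, 3.08 and 3.01 in the controls to 5.86, 5.905 and 6.02. Both inhibitory Smads rose. Smad6, which acts mainly on BMP signals, had 8.71, 8.33 and 9.08 CPM against 6.24, 6.52 and 6.59 (log2 fold change 0.43, adjusted p = 0.00013). Smad7, which acts on both branches, had 42.5, 42.3 and 44.02 CPM against 39.04, 40.04 and 39.8 (log2 fold change 0.12, adjusted p = 0.0081). The call of Smad7 was lost without C6-AQP1 replicate 3 (0.10, adjusted p = 0.053, from 0.00031 to 0.053 over all alternatives).

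**Figure D4:**
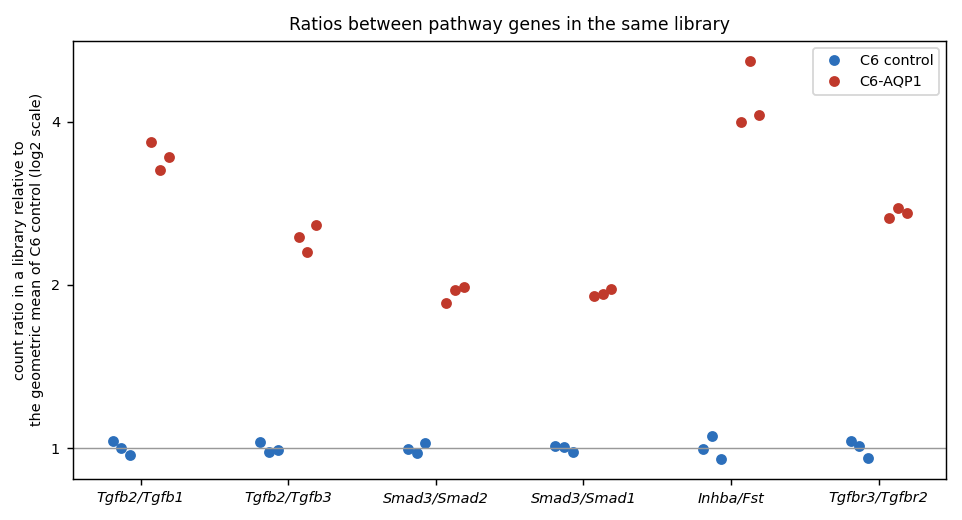
Count ratios between pairs of members in the same library, divided by the geometric mean of the 3 C6 control libraries and drawn on a log2 scale, with 1 point per library. All 6 ratios are higher in every C6-AQP1 library than in any control. Shifts run from 1.93-fold for Smad3 to Smad2 up to 4.41-fold for Inhba to Fst. In each pair the numerator is the member with the higher log2 fold change.

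Regulators of Smads moved by less than 2-fold. Tgif2, a homeodomain corepressor of Smads, had 19.1, 17.9 and 18.6 CPM in C6-AQP1 and 11.3, 10.2 and 10.4 in the controls, a log2 fold change of 0.80 (SE 0.07, edgeR adjusted p = 2.6e-10). Its relative Tgif1 fell, with 25.7, 24.1 and 26.1 CPM against 29.4, 32.9 and 32.4 (log2 fold change -0.33, adjusted p = 3.7e-06). Of the related corepressors Ski and Skil, Ski rose and Skil did not pass the test. Ski had 75.4, 84.2 and 78.6 CPM against 58.96, 61.5 and 61.7 and rose by 1.31-fold, while Skil, which is also a target of the pathway, had 35.2, 34.8 and 33.9 CPM against 35.4, 33.8 and 34.7 (log2 fold change 0.00, SE 0.04, adjusted p = 0.99). The ubiquitin ligases Smurf1 and Smurf2, which mark receptors and Smads for breakdown, had log2 fold changes of 0.08 and 0.11, and the libraries of Smurf1 overlapped between the groups.

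The 5 genes grouped by their pathway name had changes below 1.5-fold. Tgfbi, a matrix protein first found as induced by TGF-beta, had 13.7 ± 0.589 CPM in C6-AQP1 and 10.7 ± 1.09 in the controls (SD, n = 3), a log2 fold change of 0.34 (edgeR adjusted p = 0.00038). Tgfb1i1, a focal adhesion adaptor, had 5.18 ± 0.715 CPM against 6.96 ± 0.907 (SD, n = 3) and fell by 1.34-fold. Fstl1, a secreted glycoprotein related to follistatin, had 771 ± 4.05 CPM against 873 ± 9.46 (SD, n = 3), with tight libraries and a log2 fold change of -0.18. Tgfbrap1, an endosomal tethering protein, had a log2 fold change of 0.16. Bmp2k, a kinase of the endocytic machinery, had 30.8, 30.5 and 31.1 CPM against 32.2, 30.4 and 29.6 and did not pass (log2 fold change 0.01, SE 0.04, adjusted p = 0.83).

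Target genes of TGF-beta did not move in 1 direction. They were listed without regard to whether the pathway induces or represses them. The list was chosen with earlier results of these data known, so its shares are a description and no test. Of 36 genes listed as targets, 28 were measured, of which 12 rose, 13 fell and 3 did not pass. Their median log2 fold change was -0.06. The 89.3% that passed lay near the 81.5% of all genes, and 42.9% rose, against 40.8%. Past 2-fold were 5 that rose and 5 that fell, together 35.7% of the measured targets against 14.1% of all genes. The falls were those of Postn, the matrix protein periostin (-3.54), Il11, a cytokine induced by TGF-beta (-2.83), Tagln, an actin-binding protein of smooth muscle (-2.32), Pmepa1, a membrane protein that restrains Smad activation (-1.91), and Ctgf, a matricellular protein (-1.71), as log2 fold changes. Postn had 12.4, 13.03 and 13.2 CPM in C6-AQP1 and 153, 152 and 147 in the controls. Il11 had 0.563, 0.654 and 1.06 against 6.102, 5.63 and 5.42, and Tagln had 0.922, 0.799 and 0.449 against 3.99, 3.62 and 2.89. Counts in C6-AQP1 were few, with 11, 27 and 45 of Il11 and 18, 33 and 19 of Tagln. Ctgf had 318, 317 and 320.3 CPM in C6-AQP1 and 1044, 1029 and 1045 in the controls, and Pmepa1 had 49.4, 50.9 and 51.4 against 183, 194 and 193, and in all 5 genes every C6-AQP1 library lay below every control. The rises were those of the fibrillar collagens Col1a1 (2.60) and Col3a1 (2.26), the stress factor Atf3 (1.38), the zinc finger repressor Zeb2 (1.23) and Cyr61 (1.14), which belongs to the same family as Ctgf. Col1a1 had 35.2, 37.1 and 39.2 CPM against 5.97, 6.32 and 6.04, and Col3a1 had 131, 134 and 133 against 26.7, 27.2 and 28.7. Cyr61 had 990.3, 1022 and 1018 CPM in C6-AQP1 and 455, 459 and 462 in the controls, the direction opposite to Ctgf. Loxl2, an enzyme that cross-links collagen, was among the 3 that did not pass, with 122 ± 6.55 CPM in C6-AQP1 and 122 ± 1.81 in the controls (SD, n = 3), groups that overlapped (log2 fold change 0.01, SE 0.03, edgeR adjusted p = 0.82).

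Of 16 genes listed as targets of BMP, 11 were measured, of which 8 rose, 2 fell and 1 did not pass, with a median log2 fold change of 0.95. The share that rose was 72.7%, against 40.8% of all genes. This list, too, was chosen with earlier results of these data known, so its shares are a description and no test. Past 2-fold were 4, or 36.4%, and all of them rose, against 9.74% of all genes upward. Id4, an inhibitor of basic helix-loop-helix factors, had 426, 399 and 421 CPM in C6-AQP1 and 132, 134 and 136 in the controls, a log2 fold change of 1.63 (SE 0.03, edgeR adjusted p = 7.4e-23). Hey1, a repressor that answers to both Notch and BMP, had 12.96, 10.9 and 13.5 CPM against 0.808, 1.01 and 1.58, a rise of 10.4-fold. Its controls held only 18, 52 and 81 counts, and its log2 fold change ran from 3.23 to 3.73 over all alternatives. Atoh8, a basic helix-loop-helix factor, had 12.3, 13.4 and 13.8 CPM against 3.23, 3.38 and 3.21, and Dlx2, a homeodomain factor, had 3.48, 3.46 and 2.58 against 0.987, 1.02 and 1.02. For these 4 genes no C6-AQP1 library overlapped the controls. The Id genes, the most direct readouts of BMP Smads, did not move together. Id2 had a log2 fold change of 0.99, Id1 had 144, 152 and 155 CPM against 139, 128 and 137 and a log2 fold change of only 0.16, and Id3 had 65.4, 63.2 and 63.3 CPM against 93.8, 95.7 and 100.1, a fall of 1.52-fold. The other fall was that of Runx2, an osteogenic factor (-0.24), and Msx1, a homeodomain factor, did not pass (-0.19, adjusted p = 0.13).

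**Figure D5:**
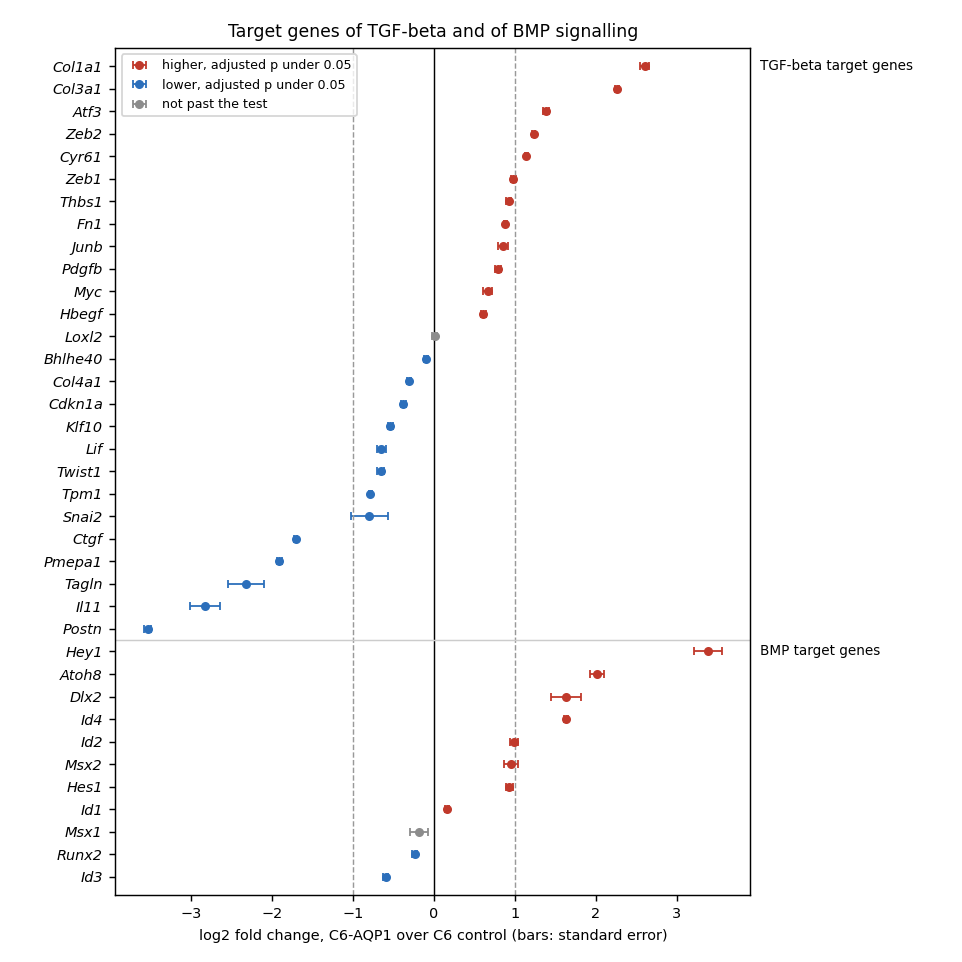
Log2 fold changes of the target genes of TGF-beta and of BMP that are reported here, in C6-AQP1 over C6 control, with bars for the standard error and dashed lines at a 2-fold change. TGF-beta targets spread from -3.54 for Postn to 2.60 for Col1a1, while 8 of the 11 BMP targets lie to the right of 0 with a passed test.

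Outside the cell, 41 partners of the pathway were listed, among them proteins that bind, activate or cleave ligands. Of these 41, 21 were measured, and 16 rose, 4 fell and 1 did not pass, with a median log2 fold change of 0.51. The share that rose was 76.2%, against 40.8% of all genes, and 81.5% of all genes passed in either direction. As with the target lists, the choice was made with earlier results known, so this share is no test. Itgav, the alpha V integrin chain that pulls TGF-beta out of its latent complex, had 879, 872 and 855 CPM in C6-AQP1 and 356, 358 and 344 in the controls, a log2 fold change of 1.30 (SE 0.02, edgeR adjusted p = 9e-23). Its possible beta partners went both ways, with log2 fold changes of 0.78 for Itgb3, 0.73 for Itgb6, 0.42 for Itgb8, -0.30 for Itgb1 and -0.38 for Itgb5. Neo1, neogenin, which joins BMP co-receptors of the RGM family, had 27.1, 26.5 and 25.5 CPM against 6.69, 6.84 and 6.94, a rise of 3.84-fold. The co-receptors Rgma and Rgmb themselves had log2 fold changes of 0.76 and 0.51. Fmod, the proteoglycan fibromodulin, which binds TGF-beta, had 5.99, 5.72 and 6.24 CPM against 0.628, 0.696 and 0.372 (log2 fold change 3.43). Its controls held only 14, 36 and 19 counts, and the value ran from 3.15 to 3.71 over all alternatives. Fibrillins, the microfibril proteins to which latent complexes are tethered, split, with Fbn1 at 0.47 and Fbn2 at -1.38. Furin, the protease that cleaves the TGF-beta precursor, fell by 1.27-fold.

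Inside the cell, of 40 listed partners of receptors and Smads 37 were measured, and 19 rose, 14 fell and 4 did not pass, with a median log2 fold change of 0.12. The 89.2% that passed lay near the 81.5% of all genes. Past 2-fold was 1, or 2.7%, against 14.1% of all genes. It was Usp11, a deubiquitinase of the type I receptor, with 1.89, 2.23 and 2.34 CPM in C6-AQP1 and 4.04, 4.97 and 4.67 in the controls (log2 fold change -1.07, edgeR adjusted p = 3.5e-07). Fkbp1a, which binds the resting receptor, had 207, 207 and 197 CPM against 343, 351 and 342 (log2 fold change -0.76), and Ppp1ca, a catalytic subunit of the phosphatase that reverses its activation, had 249, 249.6 and 248 against 488, 485 and 486 (log2 fold change -0.97). Ppp1r15a, a regulatory subunit of the same phosphatase, rose (log2 fold change 0.49). Zfyve16, an endosomal anchor of Smads, had a log2 fold change of 0.67, and the acetyltransferases Ep300 and Crebbp, coactivators of Smads, had 0.66 and 0.62.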

How the data were processed

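RNA of 3 C6-AQP1 and 3 C6 control libraries was sequenced after amplification of the cDNA. From the methods and, for versions, the submitters' processing notes, the authors used FastQC 0.11.2 for read quality, Trimmomatic 0.36 for trimming, STAR 2.5.1b for alignment to rn6 and RSEM 1.2.29 for counting. The authors deposited expected counts, not normalized, for genes with a mean TPM above 1 in a group. RSEM divides reads that fit several genes, and 3 of the 45 members (Ltbp3, Tgfbr1 and Tgif2) had a fractional count. The sources used here name no gene annotation. Labels describe single reads of 100 nucleotides and the methods paired-end reads.

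Expected counts were rounded, scaled by TMM and tested with edgeR 4.0.16 (R 4.3.3) by the robust quasi-likelihood test without covariates, with p-values adjusted over all 12121 genes. A gene rose or fell at an adjusted p under 0.05, and was past 2-fold if its absolute log2 fold change also exceeded 1. Standard errors come from the fold change and the test statistic. CPM are not adjusted for length, so levels were compared between groups and not between genes. The common coefficient of biological variation was 2.97%, and replicates differed by more than sampling noise (chi-square per degree of freedom 2.15 to 4.31), so each library was counted separately.

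Members, roles and lists were chosen with earlier results of these data known. Named are Aqp1, members past 2-fold, the 3 members of each role with the most counts, all receptors and Smads, members that did not pass, and the 4 genes of each target or partner list that changed most among those that passed, with 50 or more counts in each library of the higher group. The 8 other members are given so that all are accounted for. Some genes of the target lists enter the counts but are not reported here by name. Further target and partner genes were chosen after their values were seen. Alternatives were other scalings, a count filter, DESeq2 1.42.0, limma-voom (limma 3.58.1), a replicate block, leaving out libraries, thinning to the smallest total and summing genes of a symbol. The tests were checked on simulated counts with far fewer changed genes than passed here. That check therefore does not cover scaling or error rates under so broad a change. Promoter windows came from RefSeq (GRCr8), with 1 window a gene, at the start farthest upstream in the table.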

Additional observations from a re-analysis of the deposited data

How the results depend on the processing

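Of the 40 members that passed the test, 34 passed in all 16 alternatives, and Tgfb3, Bmp2, Tgfbr1, Acvr2b, Smad7 and Tgfbr3l did not. All of these 40 kept their direction. The members' median log2 fold change, 0.18, was 0.23 with library totals, 0.21 with upper-quartile scaling and between 0.16 and 0.20 when 1 library was left out, while the median of all genes was 0.05 and 0.04 under these scalings. Leaving out 1 library gave 23 to 26 members that rose, 11 to 13 that fell, 3 to 4 that rose past 2-fold and 1 to 2 that fell past 2-fold, with the lowest of the last without C6 control replicate 3. Falls numbered 11 with library totals, upper-quartile scaling or DESeq2. Without both replicate 1 libraries 26 members rose and 13 fell. Of the 5 members that did not pass, all but Chrdl2 changed sign. Smad5 was at 0.03 with library totals, 0.01 with upper-quartile scaling, 0.00 after thinning and between -0.04 and 0.00 when 1 library was left out. Skil was at -0.01 after thinning and between -0.01 and 0.02 without 1 library, Bmp7 between -0.30 and 0.01, and Bmp2k between -0.01 and 0.04. With the replicate block 26 members rose and 14 fell, as without it. Deviations of same-numbered libraries correlated at 0.13, -0.01 and 0.07. C6-AQP1 replicates 1 and 3 correlated best with the control of their own number, and C6-AQP1 replicate 2 with control replicate 3. Since these correlations were low, the numbers were not taken as pairs. Whether same-numbered libraries were handled together was not tested. Gdf15, Bmp7, Chrdl2, Acvr2b and Tgfbr3l had few counts. After thinning to the smallest total, Gdf15 (-1.10, edgeR adjusted p = 3.3e-05) and Acvr2b (0.66, 0.013) still passed. Tgfbr3l (1.55, 0.056) and Tgfb3 (-0.09, 0.058) did not. Tgfb3, Bmp2 and Tgfbr1 did not pass with library totals, upper-quartile scaling or DESeq2.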
